A study of Mus musculus with 8 samples.

Results

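The genes of the MHC class II pathway were examined in mouse acute myeloid leukemia (AML) cells driven by MLL-AF9, the fusion of the Kmt2a gene with Mllt3. The set was given by name and holds 10 genes, namely Cd74, H2-Aa, H2-Ab1, H2-Eb1, H2-DMa, H2-DMb1, Ciita, Rfx5, Rfxank and Rfxap. Of these, 9 had a row among the 12823 genes of the count table, and all 9 passed the filter on low counts that left 12494 genes for testing. Ciita had no row. The authors left out genes below 1 CPM (a read count scaled to the total of its library), and each row of the table reached 1 CPM in at least 3 libraries, so no value of Ciita is given here.

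Both groups are described as descended from bone marrow progenitors transduced with MLL-AF9 and GFP and transplanted into C57BL/6 mice. The new AML group (4 libraries) was GFP+ leukemia collected from sublethally irradiated primary recipients. The aggressive AML group (4 libraries) is described as the same leukemia after 5 serial transplantations, which the study made into non-irradiated mice. Labels call the samples biological replicates and give neither the age of the mice nor which animal a library came from, so that p-values measure the spread between these libraries alone. The study names male mice for this RNA-seq and gives an age range only for its mice as a whole. The comparison asked how expression differed after passage through mice with a working immune system.

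Total counts lay between 7805544 and 9697777 per library, and between 12785 and 12806 genes were detected in each. The myeloid label was checked with 12 markers, each of them present in the table. Of these, 8 were called in the edgeR test, against 18.4% of all tested genes. Csf1r (log2 fold change -1.70), Csf3r (-0.73), Itgam (-0.61), Hoxa10 (-0.59) and Spi1 (-0.25) were called lower in aggressive AML, and Cebpe (1.10), Kit (0.65) and Meis1 (0.45) higher. The part of these differences in the results for the class II genes was not tested. Among the 4 markers that were not called, Hoxa9 measured 301 ± 8.67 CPM in new AML and 322 ± 25.3 CPM in aggressive AML (SD, n = 4), and Mpo, the granule peroxidase of myeloid precursors, 2399 ± 133 and 2092 ± 554 CPM. The summed counts of the Y-linked genes Ddx3y, Eif2s3y, Kdm5d and Uty were 2315 to 2574 in each new AML library and 0 in each aggressive AML library. Whether loss of the chromosome or a different origin of the cells underlies this was not tested, and it cannot be told apart from the group in any result given here.

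MHC class II molecules display peptides from endocytosed and lysosomal proteins to CD4+ T cells. An alpha and a beta chain (H2-Aa with H2-Ab1, or an H2-E alpha chain with H2-Eb1) form the peptide-binding molecule, the invariant chain Cd74 blocks its groove and guides it to endosomes, and the heterodimer of H2-DMa and H2-DMb1 then exchanges the remnant of Cd74 for peptide. Transcription depends on the trimer of Rfx5, Rfxank and Rfxap, which binds the X box of class II promoters together with NF-Y on the Y box, and on the coactivator Ciita that this complex recruits. High expression is typical of dendritic cells, B cells and activated macrophages, while most immature myeloid cells express little. C57BL/6 mice carry a defect of the H2-E alpha gene and do not display H2-E at the surface.

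Promoter sequence was taken from RefSeq (GRCm38.p6, windows of 250 bases before to 50 bases after an annotated start). For the class II pathway, 7 windows of 6 of the 10 genes were examined. No window of Cd74, H2-Ab1, Ciita or Rfxap was examined, so the element is neither shown nor excluded in these genes. The windows were searched on both strands for GNAACT, a part of the X box, and for GATTGG, the core of the Y box, with 15 to 40 bases between them. These letters were chosen after the class II promoters had been seen. The combination was found in 131 of 32851 promoter windows (0.399%), while GNAACT alone was in 42.8% and GATTGG alone in 16.1%. Among the class II pathway genes the windows of H2-Aa, H2-Eb1 and H2-DMb1 held it. The stretches are shown because these 3 genes carry the shared element and can be set beside their RNA levels, with GNAACT and GATTGG in capitals, 5′ to 3′ along the gene:
H2-Aa (chr17:34287862-34287909, minus strand): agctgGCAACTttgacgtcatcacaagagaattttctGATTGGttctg
H2-Eb1 (chr17:34305771-34305817, plus strand): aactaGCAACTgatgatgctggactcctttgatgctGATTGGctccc
H2-DMb1 (chr17:34153092-34153139, plus strand): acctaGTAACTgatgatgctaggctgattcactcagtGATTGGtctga

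The X box match began 81 bases before the annotated start in H2-Aa, 91 in H2-Eb1 and 94 in H2-DMb1, and the gap to the Y box core was 26, 25 and 26 bases. Neither of the 2 windows listed for H2-DMa held the combination, nor did those of Rfx5 and Rfxank. Both H2-DMa windows, chr17:34122582-34122881 and chr17:34125268-34125567, lie within the annotated span of the gene, and the first overlaps the span of Brd2. Starts of H2-DMa without a listed window were not searched, so the element is not shown to be absent from this gene.

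Of the 9 tested genes, 2 were called lower in aggressive AML and 0 higher by edgeR, at a threshold of 0.05 for the adjusted p (3 had an unadjusted p under 0.05). DESeq2, limma-trend and limma-voom also called 2 lower and 0 higher, and limma-trend with array weights called 3 lower. The called share was 22.2%, against 18.4% called in either direction over all 12494 tested genes and 10.2% called lower. The groups did not overlap in the same 2 genes, Cd74 and H2-DMa, where 21.8% of all tested genes had no overlap. The median log2 fold change was -0.34 over the 9 genes and 0.00044 over all tested genes. The members differed in their individual results, which are given by role. In bulk RNA, fewer cells of a type and less RNA per cell cannot be told apart.

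**Figure D1:**
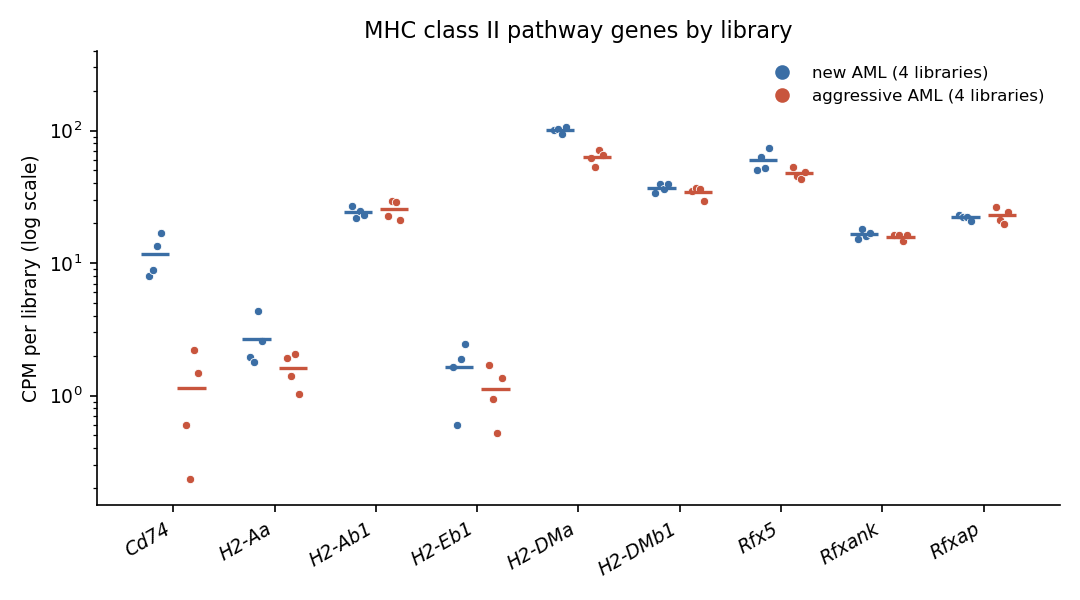
Expression of the 9 class II pathway genes in each library, in CPM on a log axis, with new AML in blue and aggressive AML in red. Points are single libraries and horizontal bars are group means. The groups are apart in Cd74 (8.01 to 16.9 against 0.236 to 2.20 CPM) and in H2-DMa (94.9 to 107 against 53.4 to 71.8 CPM) and overlap in the other 7 genes.

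Cd74, the invariant chain, had the largest log2 fold change of the 9 genes. Its level was 8.01, 8.80, 13.4 and 16.9 CPM in the new AML libraries (replicates 1 to 4) and 0.602, 0.236, 2.20 and 1.48 CPM in the aggressive AML libraries. Every new AML library lay above every aggressive AML library, and aggressive AML replicates 1 and 2 held 5 and 2 counts. The mean fell from 11.8 ± 4.18 to 1.13 ± 0.885 CPM (SD, n = 4), so that aggressive AML had 9.59% of the new AML level. The log2 fold change was -3.38 (SE 0.41, edgeR adjusted p = 5.18e-05).

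None of the chains of the peptide-binding molecules was called by edgeR. H2-Ab1, the beta chain of H2-A (chromosome 17, 34263227 to 34269418, GRCm38), measured 26.9, 21.8, 24.5 and 23.2 CPM in new AML and 22.8, 29.3, 29.0 and 21.2 CPM in aggressive AML. The values were interleaved, with a log2 fold change of 0.08 and a 95% interval of -0.20 to 0.36 (adjusted p = 0.701). A fall of the size measured for Cd74 lies far outside this interval.

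H2-Aa, the alpha chain that pairs with H2-Ab1 (34282744 to 34287823), was close to the detection limit, with 19, 15, 39 and 23 counts in new AML and 16, 12, 16 and 9 counts in aggressive AML. These correspond to 1.95, 1.78, 4.35 and 2.56 CPM against 1.93, 1.41, 2.07 and 1.02 CPM. New AML replicate 3 stood highest, and the remaining libraries of the groups overlapped. The log2 fold change of -0.73 had an interval from -1.51 to 0.05 (adjusted p = 0.181), and it was -0.39 when new AML replicate 3 was left out. A moderate fall was therefore neither shown nor excluded.

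H2-Eb1, the beta chain of H2-E (34305867 to 34316674), had 16, 5, 17 and 22 counts in new AML and 14, 8, 4 and 12 counts in aggressive AML. The lowest values of the groups, 0.594 and 0.518 CPM, were nearly equal. Its log2 fold change was -0.54 with an interval of -1.49 to 0.42 (adjusted p = 0.435). It ranged from -0.80 without new AML replicate 2 to -0.29 without new AML replicate 4, was -0.31 without aggressive AML replicate 3 and -0.02 with array weights, and was called in none of the 17 alternatives that tested it. The H2-E alpha gene had no row in the table.

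Of the 2 subunits of the peptide-exchange heterodimer, H2-DMa was called and H2-DMb1 was not. H2-DMa (chromosome 17, 34119693 to 34139101) measured 102, 103, 94.9 and 107 CPM in new AML and 62.4, 53.4, 71.8 and 65.1 CPM in aggressive AML. All 4 aggressive AML libraries lay below the lowest new AML library, and the mean fell from 102 ± 5.12 to 63.2 ± 7.63 CPM, or 62.1% of the new AML level. The log2 fold change was -0.69 (SE 0.09, adjusted p = 0.000126). The span of H2-DMa overlaps that of Brd2, with which it could share reads. For Brd2 the log2 fold change was 0.13, and it was not called (adjusted p = 0.286).

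H2-DMb1 (34153191 to 34160229), the beta subunit, measured 33.7, 39.4, 36.0 and 39.2 CPM in new AML and 34.9, 36.8, 36.02 and 29.5 CPM in aggressive AML. Only aggressive AML replicate 4 lay below the range of the new AML libraries. Its log2 fold change was -0.11, with an interval of -0.34 to 0.11 (adjusted p = 0.498). The counts of H2-DMb1 are uncertain to the extent that reads are shared with its close copy H2-DMb2, which measured 4.90 ± 1.42 and 4.50 ± 0.803 CPM.

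Partners of a heterodimer can be compared within a library, without any scaling between libraries. There were 2.62 to 3.02 counts of H2-DMa per count of H2-DMb1 in new AML and 1.45 to 2.21 in aggressive AML. The mean log2 ratio differed by -0.58 (p = 0.0286 in an exact two-sided permutation test, the smallest value that the 70 ways to choose 4 of 8 libraries allow, and 0.0857 after adjustment over 3 pairs of chains). The genes were compared because their single results differed, so that this p is not independent of them. For H2-Ab1 over H2-Aa the ratio was 5.64 to 13.8 in new AML and 11.8 to 20.8 in aggressive AML (difference 0.76, exact permutation p = 0.114). For the chains of the DM inhibitor H2-O, H2-Ob over H2-Oa, it was 2.70 to 4.52 and 2.08 to 5.06 (difference -0.24, exact permutation p = 0.457).

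**Figure D2:**
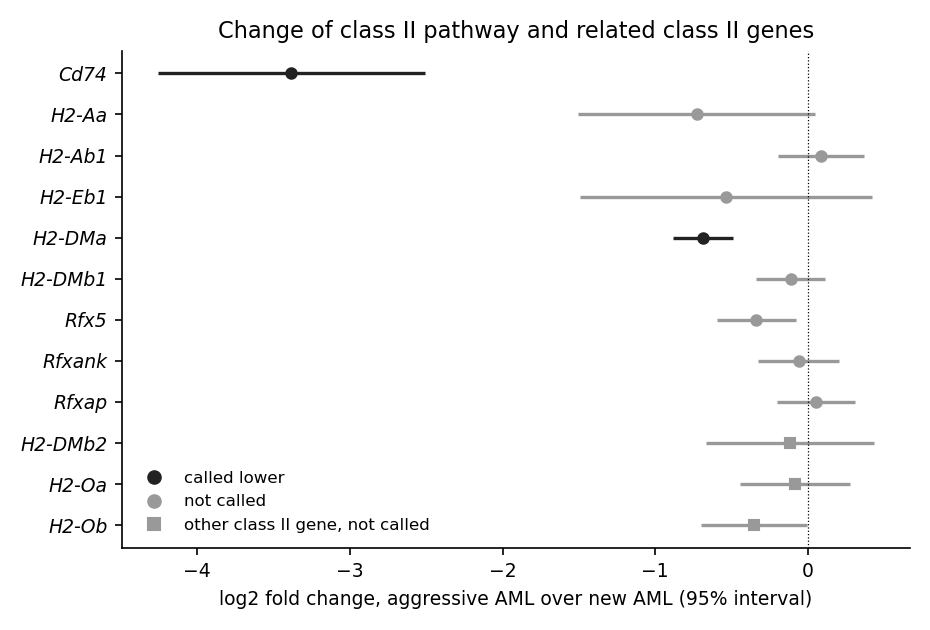
Log2 fold change of aggressive AML over new AML with its 95% interval for the 9 class II pathway genes (circles) and 3 further class II genes (squares). Black marks genes called lower by edgeR and grey marks genes that were not called. Cd74 at -3.38 and H2-DMa at -0.69 were called, and the widest intervals are those of H2-Eb1, Cd74 and H2-Aa.

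The genes of the RFX complex were expressed in every library. Rfx5, which carries the DNA-binding domain (chromosome 3, 94950689 to 94961561), measured 50.7, 63.0, 52.1 and 74.2 CPM in new AML and 52.9, 45.5, 43.02 and 48.4 CPM in aggressive AML. Aggressive AML replicate 1 lay within the range of new AML. The log2 fold change was -0.34 with an interval of -0.60 to -0.08, and it was not called (adjusted p = 0.0664, 0.0278 to 0.221 over 18 alternatives). Rfx5 was called lower in 3 of these alternatives, with the lowest adjusted p under array weights and calls at 0.0405 without new AML replicate 1 and 0.04 without new AML replicate 3. Its span overlaps the antisense gene B230398E01Rik.

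Rfxank, the ankyrin repeat subunit, measured 15.2, 18.2, 16.1 and 16.7 CPM in new AML and 16.1, 16.3, 14.8 and 16.2 CPM in aggressive AML. For Rfxap (chromosome 3, 54803115 to 54807791), the third subunit, the values were 23.2, 22.1, 22.3 and 20.7 CPM against 26.4, 21.2, 19.8 and 24.1 CPM. Both genes had narrow intervals around 0, from -0.33 to 0.21 for Rfxank (adjusted p = 0.77) and from -0.20 to 0.31 for Rfxap (adjusted p = 0.801). The span of Rfxank overlaps that of Nr2c2ap.

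Levels were compared between genes per kilobase of transcript, with the median length of the protein-coding transcripts in GENCODE M21. In new AML the order was H2-DMa (61.3 CPM per kb), H2-DMb1 (26.4), H2-Ab1 (22.9), Rfxap (15.5), Rfx5 (14.1), Cd74 (8.76), Rfxank (6.99), H2-Aa (2.72) and H2-Eb1 (0.986). The invariant chain thus stood below H2-Ab1 at the level of RNA. There were 29.8 to 73.1 counts of Cd74 per 100 counts of H2-Ab1 in the new AML libraries and 0.803 to 7.59 in the aggressive AML libraries. In aggressive AML the level per kilobase of Cd74, at 0.840, was near that of H2-Eb1, at 0.676, and these neighbours did not differ beyond their spread. In new AML the library ranges also overlapped between H2-DMb1 and H2-Ab1, between Rfxap and Rfx5, between Rfx5 and Cd74 and between Cd74 and Rfxank.

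The other genes that encode class II chains are H2-DMb2, H2-Oa, H2-Ob, H2-Eb2 and the H2-E alpha gene, which was searched under 2 names. Of this list 3 genes had rows, and 0 were called in the edgeR test (1 had an unadjusted p under 0.05). H2-Ob, the beta chain of the DM inhibitor, measured 64.5 ± 13.2 CPM in new AML and 50.5 ± 10.8 CPM in aggressive AML (log2 fold change -0.35, interval -0.70 to -0.01, adjusted p = 0.145). It was called lower in 2 of the 18 alternatives, with adjusted p-values of 0.0304 without new AML replicate 3 and 0.0109 with array weights. H2-Oa measured 16.8 ± 0.701 and 15.9 ± 4.13 CPM (adjusted p = 0.765). H2-DMb2 gave a log2 fold change of -0.12 (adjusted p = 0.785).

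The class II chains lie in a segment of chromosome 17 from H2-Oa to H2-Ea, in which RefSeq places 14 protein-coding genes. Of these 13 were tested, and 2 were called lower and 0 higher, where 10.2% of all tested genes were called lower and 8.15% higher. The called genes were H2-DMa and Tap1, the peptide transporter of the class I pathway (log2 fold change -0.40, adjusted p = 0.0149). Between these called genes lay H2-DMb2, H2-DMb1 and Psmb9, none of them called in the edgeR test. The remaining class I genes of the segment, Psmb8 and Tap2, had log2 fold changes of -0.08 and -0.05.

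**Figure D3:**
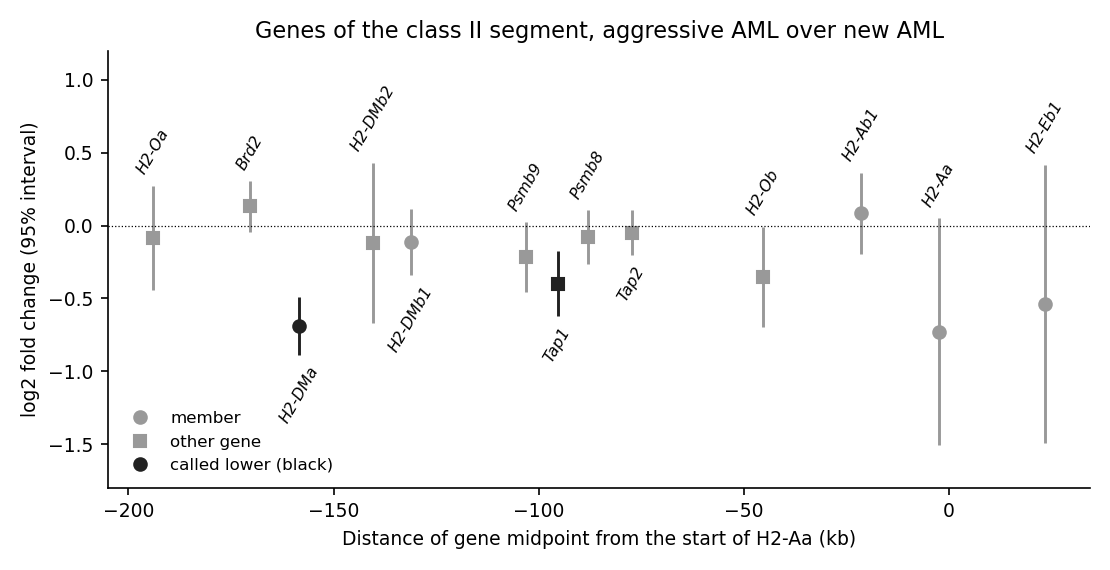
Log2 fold change with its 95% interval for the 13 tested genes of the class II segment, plotted against the distance of each gene's midpoint from the start of H2-Aa in kb. Circles are class II pathway genes, squares are other genes, and black marks the genes called lower. The called genes H2-DMa and Tap1 stand at -158.4 and -95.4 kb, with genes that were not called on either side.

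Lists of genes that act with the class II pathway were described by their counts. These stand beside 10.2% of all tested genes called lower and 8.15% called higher. Proteases and other enzymes that cut Cd74 and antigens, with ubiquitin ligases of class II, formed the first list. Of its 9 tested genes 3 were lower and 1 was higher. Cathepsin S (Ctss), which removes the last part of Cd74 in dendritic cells and B cells, measured 140 ± 16.9 CPM in new AML and 65.2 ± 10.8 CPM in aggressive AML (log2 fold change -1.10, SE 0.12, adjusted p = 1.41e-05). Cathepsin H (Ctsh) fell from 126 ± 14.6 to 66.4 ± 15.97 CPM (log2 fold change -0.93). Cathepsin L (Ctsl), which takes the role of cathepsin S in the thymic epithelium, rose from 23.1 ± 3.63 to 37.2 ± 9.08 CPM (log2 fold change 0.69, adjusted p = 0.00856).

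Among these enzymes Ctss, Ctsh and Ctsl also had no overlap between groups, where 21.8% of all tested genes had none. Ifi30, the thiol reductase of endosomes, was called lower at a log2 fold change of -0.39 (adjusted p = 0.0329), but the call was lost on leaving out new AML replicate 3 or aggressive AML replicate 1, 2 or 4, with adjusted p-values of 0.0892, 0.0755, 0.0852 and 0.102. The abundant cathepsins Ctsz (538 ± 36.4 and 519 ± 40.1 CPM) and Ctsb (484 ± 39.7 and 415 ± 54.4 CPM) were not called. The median log2 fold change of the list was -0.22. The ligase genes March1 and March8 are not analysed here, since 19 gene names in the table read as dates.

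Interferon gamma induces Ciita through its receptor, the kinases Jak1 and Jak2 and factors such as Irf1, and a list of regulators of Ciita held 13 tested genes. Of them 6 were lower and 1 was higher, with a median of -0.43, against 10.2% of all tested genes lower and 8.15% higher.

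The chains of the interferon gamma receptor moved in opposite directions. Ifngr2, the signalling chain, fell from 60.8 ± 0.893 to 38.8 ± 3.03 CPM (log2 fold change -0.65, adjusted p = 0.000154). Ifngr1, the ligand-binding chain, rose from 374 ± 29.8 to 486 ± 85.1 CPM (log2 fold change 0.38, adjusted p = 0.0204), although the call was lost without new AML replicate 1 (adjusted p = 0.0653).

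Jak2 was lower by a log2 fold change of -0.43 (adjusted p = 0.0114), and so was Irf8, a regulator of monocyte and dendritic cell fate, at -0.54 (adjusted p = 0.000657). Irf1 had a log2 fold change of -0.53 (adjusted p = 0.0229), and its call was lost on leaving out new AML replicate 3 or aggressive AML replicate 2 or 3 (adjusted p = 0.0561, 0.0521 and 0.0515). Spi1, which encodes PU.1, had one of -0.25 (adjusted p = 0.0159), and its call was lost on leaving out new AML replicate 2 or aggressive AML replicate 4 (adjusted p = 0.0521 and 0.0549). The values of Jak1 (158 ± 9.57 and 141 ± 6.79 CPM) and Usf2 (193 ± 10.04 and 182 ± 15.6 CPM) were not called.

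Factors that bind the X and Y boxes beside the RFX complex, with coactivators of Ciita, gave 2 lower and 0 higher among 12 tested genes (median -0.09). Nfya, a subunit of NF-Y, fell from 209 ± 15.7 to 138 ± 25.1 CPM (log2 fold change -0.60, adjusted p = 0.0017), while its partners Nfyb and Nfyc had log2 fold changes of 0.01 and 0.10 and were not called. Creb1 was called at -0.27 (adjusted p = 0.0443), but of 8 fits with a library removed it was called only in the one without aggressive AML replicate 4, and the adjusted p reached 0.116. Smarca4 (311 ± 28.1 and 293 ± 7.04 CPM) was not called.

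Of 4 tested RFX factors outside the complex, Rfx1 fell from 60.8 ± 1.17 to 43.9 ± 8.84 CPM (adjusted p = 0.0132), and the list had a median of -0.27. Rfx7, the most abundant of them, was not called, at 116 ± 7.23 and 121 ± 4.21 CPM. Cd74 also serves as a surface receptor of the cytokine Mif together with Cd44, and in a list of these ligands and partners 1 of 5 genes was called. Mif rose from 111 ± 25.2 to 173 ± 30.1 CPM (log2 fold change 0.64, adjusted p = 0.00638), while Cd44 measured 383 ± 16.7 and 373 ± 29.0 CPM (adjusted p = 0.735).

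A list of costimulators of T cells, together with the inhibitory ligands Cd274 and Pdcd1lg2, had 3 tested genes. Cd80 was called lower (1.66 ± 0.283 and 0.626 ± 0.417 CPM, adjusted p = 0.0495), but of 8 fits with a library removed it was called only in the one without aggressive AML replicate 4, and the adjusted p reached 0.123. Icosl and Cd274 were not called, at 41.6 ± 4.47 and 37.3 ± 3.95 CPM and at 7.33 ± 0.689 and 6.53 ± 2.51 CPM. Cd40, Cd86 and Pdcd1lg2 had no row.

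**Figure D4:**
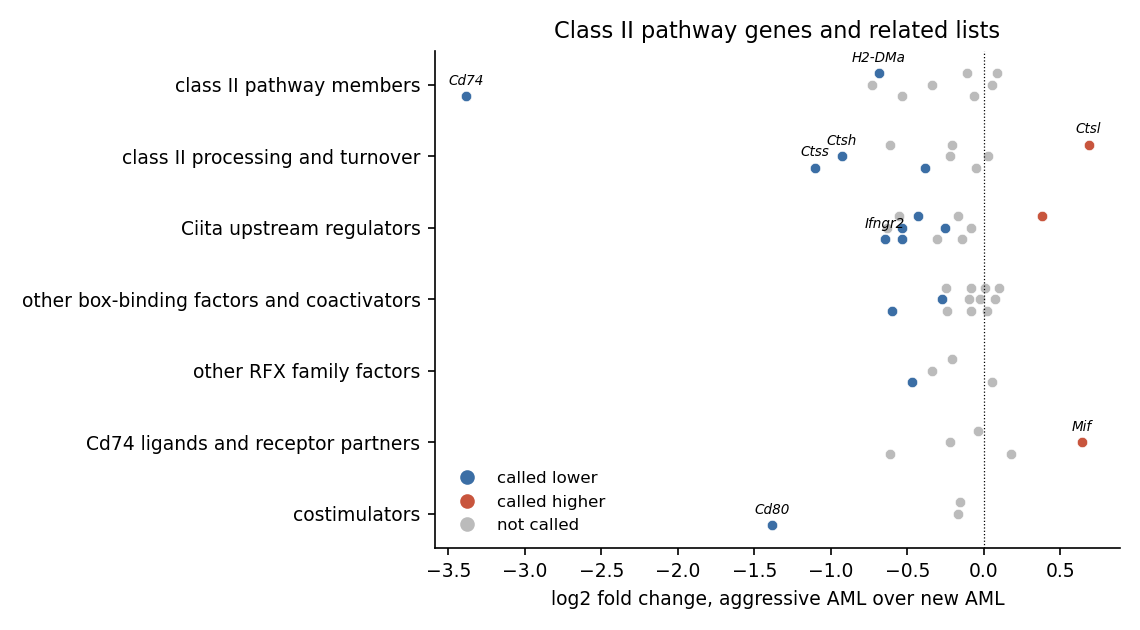
Log2 fold change of aggressive AML over new AML for the tested genes of the class II pathway and of 6 related lists, leaving out 1 gene that is not reported here. Each point is a gene, blue where it was called lower, red where it was called higher and grey where it was not called, with names for called genes beyond 0.6. Cd74 stands apart from the other genes, and Ctsl, Ifngr1 and Mif are the called genes above 0.

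Markers of antigen-presenting cells were examined beside Cd74, because such cells express class II genes. Their counts stand beside 10.2% of all tested genes called lower and 8.15% called higher. Of 12 B cell markers 4 had rows and 2 were tested. Cd22 had 40, 30, 29 and 39 counts in new AML and 2, 0, 0 and 2 counts in aggressive AML (adjusted p = 1.85e-05). Cd79b, the most abundant marker of the list at 36.3 ± 1.75 and 32.1 ± 1.53 CPM, was not called (adjusted p = 0.211). Ms4a1, Pax5, Ebf1, Blk, Ighm, Igkc, Fcer2a and Cr2 had no row. The summed level of the list was 40.2 to 45.4 CPM in new AML and 30.6 to 34.0 CPM in aggressive AML.

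Of 12 dendritic cell markers 6 had rows and 5 were tested, with 3 lower and 1 higher. Siglech, a marker of plasmacytoid cells, had 61, 33, 34 and 75 counts in new AML and 0, 2, 5 and 8 counts in aggressive AML (log2 fold change -3.59, adjusted p = 0.000184). Itgax, which encodes CD11c, fell from 40.2 ± 8.10 to 10.7 ± 1.71 CPM and Ccr7 from 2.36 ± 0.553 to 0.667 ± 0.327 CPM, while Clec10a rose from 11.5 ± 1.64 to 16.9 ± 1.39 CPM (adjusted p = 0.016). The call of Clec10a was lost without new AML replicate 4 (adjusted p = 0.0538). Flt3, which immature leukemia cells share with dendritic cells, held most of the summed level of 509 to 732 CPM in new AML and 629 to 827 CPM in aggressive AML, and it was not called. Zbtb46, Xcr1, Clec9a, Batf3, Ccr9 and Fscn1 had no row.

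Among 5 tested macrophage markers of 12 (6 had rows), 3 were lower. Csf1r, which is also in the list of myeloid markers, fell from 166 ± 28.4 to 51.2 ± 6.41 CPM and Adgre1 from 83.1 ± 20.9 to 46.9 ± 7.93 CPM. Axl fell from 3.47 ± 1.66 to 1.28 ± 0.343 CPM, and its call was lost on leaving out new AML replicate 4 or aggressive AML replicate 2 (adjusted p = 0.0743 and 0.0523). The summed level was 204 to 320 CPM in new AML and 81.04 to 113 CPM in aggressive AML. C1qa, C1qb, Mertk, Fcgr1, Cd5l and Marco had no row, and C1qc had at most 12 counts in a library.

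Of 12 T cell markers 3 were tested, and Bcl11b was called higher (adjusted p = 0.0427), but of 8 fits with a library removed it was called only in the one without aggressive AML replicate 3, and limma-voom gave 0.211. Cd28, the most abundant of them, measured 72.3 ± 12.03 and 63.1 ± 17.2 CPM, and the chains of CD3, Cd4 and Cd8a had no row. The summed level was 66.02 to 95.6 CPM in new AML and 51.8 to 104 CPM in aggressive AML. Over the lists of B cells, dendritic cells and macrophages, 7 of 12 tested markers were called lower, 1 was called higher and 4 were not called. The shares over all tested genes were 10.2% lower and 8.15% higher. Cd22 and Siglech reached 1 CPM in new AML libraries alone, so they passed the low-count filter only through the group where they were high. With at least 1 CPM required in all 8 libraries, 0 B cell, 1 dendritic cell and 2 macrophage markers were called lower. Under that filter 1 dendritic cell marker was called higher. The part of these markers in the fall of Cd74, H2-DMa and Ctss was not tested. Which cells the reads of the class II chains came from was not tested either. H2-Ab1 was interleaved between groups, at 21.8 to 26.9 CPM in new AML and 21.2 to 29.3 CPM in aggressive AML. H2-Aa and H2-Eb1 had log2 fold changes of -0.73 and -0.54, and neither was called.

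**Figure D5:**
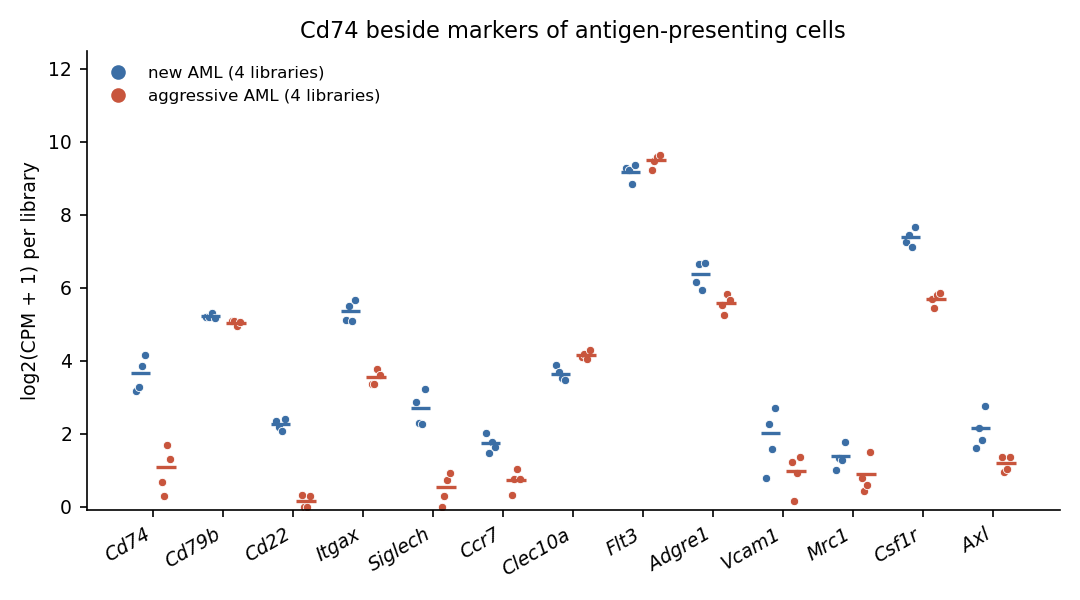
Cd74 beside the 12 tested markers of B cells, dendritic cells and macrophages, in the order of their lists, as log2(CPM + 1) per library. Points are single libraries and bars are the group mean of CPM on the same scale. Cd74 and 8 markers are lower in all 4 aggressive AML libraries than in any new AML library. Clec10a is higher in all 4, and Flt3, Vcam1 and Mrc1 overlap. Of all tested genes, 21.8% had no overlap between groups, in either direction. Cd22 and Siglech, among the 8 lower markers, reached 1 CPM in new AML libraries alone.

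The 5 genes whose profile over the 8 libraries lay nearest to that of Cd74, among 9478 genes whose higher group mean reached 10 CPM, were Slfn5, AI607873, Pyhin1, Ltf and Ahnak. Their root mean square difference from Cd74 on the centred log2(CPM + 1) scale was 0.30 for Slfn5, 0.37 for AI607873, 0.39 for Pyhin1, 0.41 for Ltf and 0.44 for Ahnak. Slfn5, AI607873 and Pyhin1 belong to families that interferon induces, Ltf encodes the granule protein lactoferrin, and Ahnak encodes a large scaffold protein. All 5 were lower in aggressive AML, with log2 fold changes of -2.74, -3.53, -2.09, -3.07 and -2.19, a direction that their choice by likeness to Cd74 already sets. No gene of the class II pathway was among them, but H2-Aa and H2-Eb1 lay under 10 CPM and were not candidates. The measure also depends on the size of the fold change, so this absence is not a result about the pathway.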

How the data were processed

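RNA-seq of 8 libraries was analysed. The authors aligned paired-end reads of polyadenylated RNA from GFP+ cells to mm10 with HISAT2, obtained gene counts with Rsubread and removed genes under 1 CPM. Although the deposited table is named for CPM, its values are whole and sum to unequal totals, and they were used as raw counts. The annotation and strand setting were not given in the sources used here, so that overlapping genes are uncertain. Genes had to reach 1 CPM in 4 or more libraries, and 329 of 12823 rows did not. A quasi-likelihood model (edgeR 4.0.16 in R 4.3.3) was fitted across the 12494 genes with TMM scaling and the group as the term, with two-sided p-values, Benjamini-Hochberg adjustment and a threshold of 0.05. The test was checked on simulated data. Alternatives used DESeq2 (1.42.0) and limma (3.58.1), the tool of the study, here on log2(CPM + 1) and with voom. CPM values carry the TMM factors (0.986 to 1.01). Chi-square per degree of freedom between replicates was 4.04 to 10.9. Coordinates and promoters are from RefSeq GRCm38.p6, the build of mm10. Named genes are the class II pathway genes, the other class II genes, called and most abundant genes of each list, and the 5 profiles nearest to Cd74. Members and lists were chosen with earlier results of these data known. Results of 2 genes are not reported here. Bounds and counts near 0 cover counting error only.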

Additional observations from a re-analysis of the deposited data

Results flagged for a closer look

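Among 12 class II genes in 2 groups of 4 libraries (24 groups of values), 1 value stood apart from the others of its group by Dixon's criterion, where chance gives about 1 in 20 groups, or 1.2 here. Rfxank in aggressive AML replicate 3 measured 14.8 CPM, and the other libraries of the group measured from 16.1 to 16.3 CPM.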

How the results depend on the processing

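The class II pathway was recomputed under 18 alternatives, which gave 160 values of its genes. Of these 156 kept their direction and their side of the threshold. Cd74 was called lower in each of the 17 alternatives that tested it, with log2 fold changes of -3.89 to -2.63, and H2-DMa in all 18, at -0.76 to -0.61. With at least 1 CPM required in all 8 libraries, Cd74 was not tested and 1 gene was called lower. With array weights, an alternative added after the data were seen, Rfx5 was called at -0.34 (adjusted p = 0.0278), and the related lists had 23 genes called lower in place of 13. Without single libraries, Rfx5 ranged from -0.41 to -0.22, called without new AML replicate 1 or 3, and Rfxap from -0.02 to 0.11, where the sign turned without aggressive AML replicate 1 (-0.02, or -0.023 to a further digit). The causes were not tested. Scaling alternatives moved the median of all tested genes by less than 0.02. Between 1601 and 3252 genes were called over all. Samples of the groups share replicate numbers, but deviations of same-numbered libraries correlated at -0.0654 to 0.204 and 3 of 8 libraries were nearest to their own number. With the replicate number as a block, Cd74 had a log2 fold change of -3.45 (adjusted p = 2.41e-05), 2 class II pathway genes were lower, and 2367 genes were called in place of 2296. Precision is limited by depth for H2-Aa and H2-Eb1, whose libraries held 4 to 39 counts.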
